A study of Mus musculus with 8 samples.

Results

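The nuclear receptor superfamily was followed in the mouse uterus just before embryos attach. Its members were chosen by gene symbol from a list of 46 receptor genes. Of these, 44 had a probe set with a single gene symbol on the array, 1 probe set each, among 19938 genes with such a probe set in the whole series, and 2, Nr1h2 and Nr2e3, had none and are not analysed here. An intensity filter, which asked for values over an array's 40th percentile on at least 4 of 8 arrays, was passed by 28 of the 44, and the other 16 are described by their values without a call. The arrays carried total uterine RNA of young virgin C57BL/6 females, an inbred strain, taken at 22 h on day 3, where the mating night is day 0. For the 4 pregnant samples the females had been paired with stud males, and only uteri without a blue dye reaction, the sign of attachment, and with normal blastocysts in the flushings were taken. For the 4 pseudopregnant samples the males were vasectomized, a mating that sets off the hormonal changes of early pregnancy without embryos. The groups thus differed in the male as well as in the presence of embryos, which cannot be told apart, and no array came from an unmated female.

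Nuclear receptors are transcription factors that share a DNA-binding domain and a ligand-binding domain. Many are switched by small lipophilic ligands such as steroids, retinoic acid, thyroid hormone, vitamin D, fatty acids or oxysterols, and others are orphans without a known hormone. In the uterus, ovarian estrogen and progesterone act through Esr1 and Pgr to prepare the epithelium and the stroma for the embryo, the COUP transcription factor Nr2f2 is needed in the stroma for implantation, and retinoic acid acts through heterodimers of retinoic acid receptors (RARs) and retinoid X receptors (RXRs). The title of the series names retinoic acid signalling, and the comparison of the groups asks whether the receptors themselves differed in transcript level when embryos were present.

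Deposited intensities were used on a log2 scale, on which a difference of 0.585 is a 1.5-fold change. An intensity of a probe set was set only against the same probe set on other arrays, apart from summed levels. A summed level is the log2 of the added linear intensities of a marker list on an array, so the brightest probe sets weigh most. Median intensities were 55.2 to 56.3 on the 8 arrays, within-group correlations were 0.984 to 0.994 over the kept probe sets, and 4 arrays in each group limit the precision. On the first principal component, with 46.1% of the variance, pregnant replicate 2 (26.7) and pseudopregnant replicate 1 (-20.3) lay apart from the others of their groups (4.90 to 6.63 and -9.32 to -6.76). The samples had been picked for RNA quality, and integrity numbers ran from 6.9 to 8.7 without being assigned to single arrays. All 7 smooth muscle, 8 epithelial and 7 stromal fibroblast markers passed the filter. Of the smooth muscle markers 4 had differences above 0 and 3 below, with a median of 0.087. Their summed level overlapped, at 13.26 to 13.51 in the pregnant and 13.17 to 13.44 in the pseudopregnant group. Myocd alone of these 7 was called, lower in the pregnant group (limma adjusted p = 0.0498), where 1.82% of all kept probe sets were called. Of 8 measured lymphocyte and NK cell markers 7 lay above 0 and 4 rose (Gzmb, Prf1, Ncr1 and Il2rb), with a median difference of 0.88. Of all kept probe sets 1.41% were called higher. Klrd1, among the 7, passed the filter through the pregnant arrays alone (pseudopregnant values 4.34 to 5.14). Its direction and its part in the median were thus set by the filter. The summed level of the 8 was 9.38 to 10.16 in the pregnant against 8.65 to 9.22 in the pseudopregnant group. The T cell genes among them, Cd3e and Cd3g, differed by -0.15 (limma adjusted p = 0.30) and 0.04 (0.90). All 6 endothelial markers had differences below 0 with 0 called, and their summed level was 11.16 to 11.32 against 11.37 to 11.48. The 7 cell cycle genes past the filter lay above 0, and 1 of them, Pcna, was called higher. The part of these cell types in the receptor values was not tested. In whole tissue, fewer cells of a type and less RNA per cell cannot be told apart.

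No receptor gene was called between the groups, and 16 of the 44 were not tested under the filter. Of the 28 receptor genes past the filter, 0 had an adjusted p under 0.05 in either direction (limma, Benjamini-Hochberg over 17494 probe sets), where 1.82% of all kept probe sets were called. Before adjustment, 1 of the 28, Ppard, had p under 0.05 in limma, or 3.57%, where 23.7% of all kept probe sets were under that line. The groups of 4 arrays did not overlap for 2 of the 28, Ppard and Nr2c1, or 7.14%, where 14.6% of all kept probe sets showed no overlap. The median difference, pregnant minus pseudopregnant, was -0.05 over the 28 genes and 0.0019 over all kept probe sets, and the median size of a difference was 0.072 and 0.092. The 95% interval of the difference lay within 1.5-fold in both directions for 26 of the 28 genes, as for 94.4% of all kept probe sets, and the exceptions were Nr4a1 and Nr4a2. Differences below 0 were held by 18 of the 28 genes and differences above 0 by 10.

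**Figure D1:**
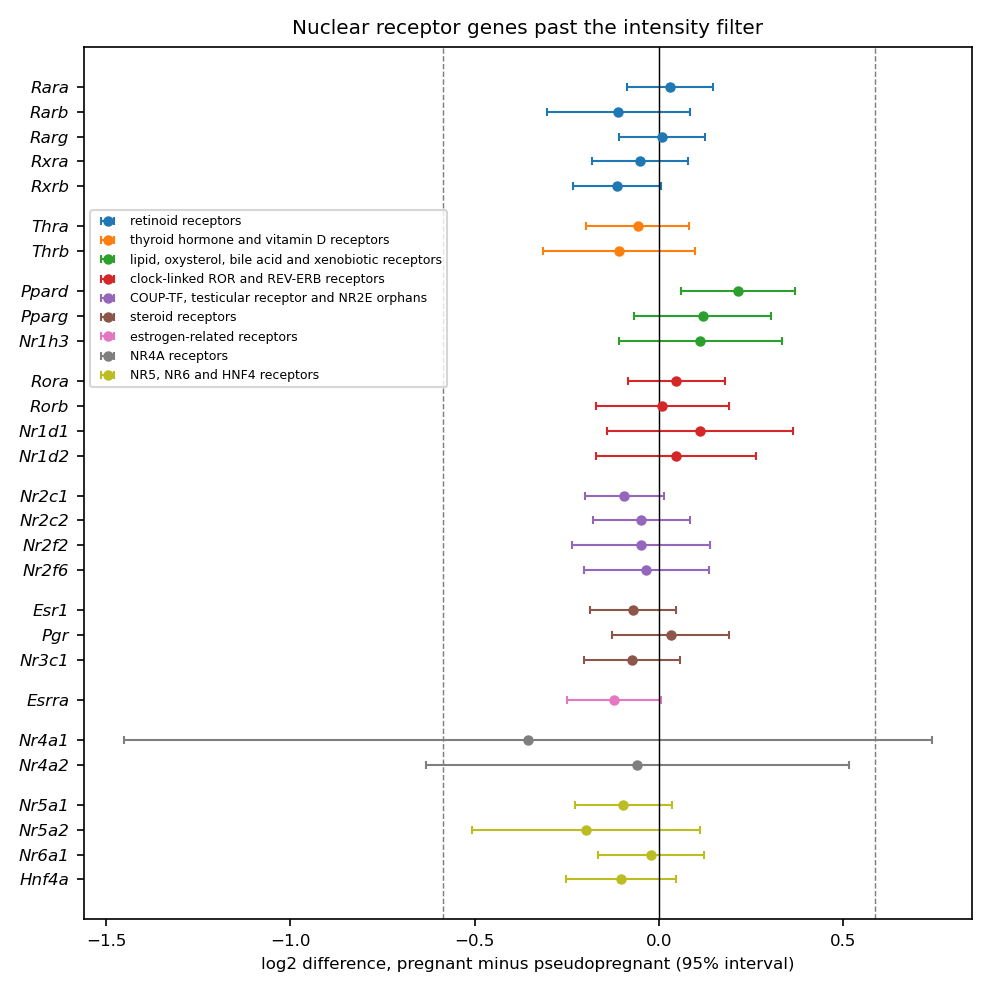
Log2 difference (pregnant minus pseudopregnant, x axis) of the 28 nuclear receptor genes past the intensity filter (y axis, coloured by role), with 95% intervals from limma over 4 arrays in each group. Dashed lines mark 1.5-fold (0.585): 26 intervals lie inside them, that of Ppard is the only one that does not include 0, and those of Nr4a1 and Nr4a2 are the widest.

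The retinoid receptors, through which retinoic acid reaches its genes, differed little between the groups. Rara read 6.80, 6.77, 6.76 and 6.80 in pregnant replicates 1 to 4 and 6.75, 6.82, 6.65 and 6.78 in pseudopregnant replicates 1 to 4. The values of the groups overlapped, and the difference was 0.03 (95% interval -0.086 to 0.15, limma adjusted p = 0.75), which turned to -0.0033 without pseudopregnant replicate 3. Rarg, the isotype that is also found in many epithelia, differed by 0.0073 (-0.11 to 0.12, adjusted p = 0.94), a sign that changed with the scaling of the arrays. Rarb, itself a gene that retinoic acid induces, read 5.59, 5.35, 5.48 and 5.69 in the pregnant group and 5.54, 5.71, 5.52 and 5.78 in the pseudopregnant group. It differed by -0.11 ± 0.087 (SE, adjusted p = 0.46), so its transcript was not detectably raised or lowered at this precision. Among the RXRs, the common partners of many other receptors, Rxra differed by -0.05 (adjusted p = 0.62). Rxrb read 7.15, 6.997, 6.99 and 7.07 in the pregnant group against 7.19, 7.11, 7.18 and 7.18 in the pseudopregnant group. Only pregnant replicate 1 lay within the range of the pseudopregnant arrays, and the difference was -0.11 ± 0.054 (SE, adjusted p = 0.23). Rxrg, known from muscle and brain, lay below the 40th percentile on all arrays, at 3.97 to 4.18.

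Among genes known to respond to retinoic acid receptors, 1 of 7 past the filter, Rarb among them, rose and 0 fell. Of all kept probe sets 1.41% were called higher, and the median difference of the 7 genes was -0.05. The member that rose was Cyp26a1, which breaks down retinoic acid, with 7.81 ± 0.66 in the pregnant and 5.67 ± 0.66 in the pseudopregnant group (SD, n = 4 each) and an adjusted p of 0.028 (limma). It lay below the 40th percentile in pseudopregnant replicates 1 and 2 (5.31 and 4.98), so its size is not exact. Lrat, of the same list, had the next smallest p, with a difference of 1.09 ± 0.31 (SE, limma adjusted p = 0.079) and overlapping groups. Like Cyp26a1, Lrat lay below the 40th percentile in pseudopregnant replicates 1 and 2 (5.26 and 4.94). Dhrs3, which reduces retinal back to retinol, differed by -0.22 (adjusted p = 0.14) and the retinol receptor Stra6 by 0.26 (0.14). The differences of the 5 retinoid receptors past the filter ran from -0.11 to 0.03, beside 2.13 for Cyp26a1. The call of Cyp26a1 was lost without pregnant replicates 1, 2 or 4 or pseudopregnant replicates 1 or 2, at adjusted p up to 0.085.

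The thyroid hormone receptors Thra and Thrb differed by -0.06 (adjusted p = 0.60) and -0.11 (0.50), and both groups overlapped. The vitamin D receptor Vdr lay near the background, at 5.03, 5.75, 5.45 and 4.96 in the pregnant group and 5.18, 5.05, 5.06 and 5.18 in the pseudopregnant group. The gene did not pass the filter, since pregnant replicates 2 and 3 alone exceeded the 40th percentile. Its difference of 0.18 was 0.031 without pregnant replicate 2. Of 5 thyroid hormone and vitamin D responsive genes past the filter, 0 passed the threshold. The calcium channel Trpv6, known to respond to vitamin D, differed by 0.97 ± 0.21 (SE) with no overlap of the groups and an adjusted p of 0.052, and the lipogenic gene Thrsp by -0.67 ± 0.19 (0.078).

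The fatty acid receptor Ppard had the largest difference above 0 among the 28 genes. PPAR delta is activated by fatty acids and by prostacyclin. It read 7.79, 7.98, 8.09 and 7.88 in pregnant replicates 1 to 4 and 7.67, 7.75, 7.70 and 7.77 in pseudopregnant replicates 1 to 4. All pregnant arrays lay above all pseudopregnant arrays, although pregnant replicate 1 exceeded pseudopregnant replicate 4 by little. The group values were 7.94 ± 0.13 and 7.72 ± 0.046 (SD, n = 4 each), a 1.16-fold difference of 0.21 (95% interval 0.060 to 0.37). It did not pass the threshold (limma adjusted p = 0.11), and it stayed between 0.16 and 0.26 with adjusted p of 0.090 to 0.23 over 17 alternatives.

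Its relatives gave no call. Pparg, the adipocyte isotype, differed by 0.12 (adjusted p = 0.41). Ppara, the liver isotype, lay below the 40th percentile on all arrays (4.84 to 5.17), with overlapping groups and a difference of -0.14, opposite in sign to that of Ppard. The oxysterol receptor Nr1h3, which macrophages use to export cholesterol, read 5.93, 6.43, 6.14 and 6.21 in the pregnant group and 6.00, 6.01, 6.04 and 6.22 in the pseudopregnant group. Its highest value was that of pregnant replicate 2, and its difference of 0.11 (adjusted p = 0.52) was 0.027 without that array. The bile acid receptor Nr1h4 and the xenobiotic receptors Nr1i2 and Nr1i3, which are known from liver and intestine, lay below the 40th percentile on all arrays, at 3.61 to 3.76, 4.38 to 4.63 and 4.08 to 4.39.

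Genes known as PPAR or oxysterol receptor targets gave 1 rise each, in 6 and 8 members past the filter, with medians of -0.04 and -0.04. Of all kept probe sets 1.41% were called higher. The fatty acid transporter Cd36 rose by 0.60 ± 0.13 (SE, limma adjusted p = 0.047) and the lipid carrier Apoe by 0.34 ± 0.062 (0.034). Angptl4, a PPAR target that restrains lipid uptake, differed by -0.24 (0.16), and Plin2, which coats lipid droplets, by -0.06 (0.52), and neither passed the threshold. The phospholipid transfer gene Pltp differed by -0.18 (0.13) and the cholesterol exporter Abca1 by 0.19 (0.42), or 0.083 without pregnant replicate 2. Both Cd36 and Apoe are abundant in macrophages, and of 10 markers of macrophages and dendritic cells 7 rose, beside 1.41% of all kept probe sets. The summed level of those 10 markers was 10.52 to 10.74 in the pregnant and 10.20 to 10.30 in the pseudopregnant group, and its part in these 2 results and in the value of Nr1h3 was not tested. Each of both calls was lost without pregnant replicates 1 or 4 or any of pseudopregnant replicates 1 to 3, that of Cd36 also without pregnant replicate 2 and that of Apoe without pregnant replicate 3, at adjusted p up to 0.12 and 0.085. Prostacyclin synthase, Ptgis, whose product is a candidate ligand of Ppard, differed by -0.08 (adjusted p = 0.52).

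The receptors tied to the circadian clock showed no call. The nuclear receptors Rora and Rorb activate clock genes through the sites at which Nr1d1 and Nr1d2 (REV-ERB alpha and beta) repress them. Rora differed by 0.05 (adjusted p = 0.66), and Rorb by 0.0083 (0.96), with a sign that changed with the scaling. Nr1d1 read 7.57, 7.98, 7.67 and 7.62 in the pregnant group and 7.33, 7.64, 7.63 and 7.80 in the pseudopregnant group. Its highest array was pregnant replicate 2 and its lowest pseudopregnant replicate 1, the arrays that lay apart on the first principal component. Its difference was 0.11 (adjusted p = 0.58), 0.019 without pregnant replicate 2 and 0.021 without pseudopregnant replicate 1. Nr1d2 had the same highest and lowest arrays, 8.43 and 7.98, and differed by 0.05 (0.80). Of 7 measured clock genes that these receptors bind or that oscillate with them, 0 passed the threshold. The genes Tef and Dbp, transcription factors of the clock output, differed by -0.16 (0.20) and -0.18 (0.34; -0.10 without pregnant replicate 1), Arntl by 0.06 (0.64) and Clock by -0.03 (0.74).

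The COUP transcription factor Nr2f2, a progesterone-regulated gene of the uterine stroma, read 9.46, 9.25, 9.13 and 9.51 in the pregnant group and 9.40, 9.43, 9.32 and 9.40 in the pseudopregnant group. Pregnant replicates 2 and 3 lay below all pseudopregnant arrays and pregnant replicates 1 and 4 above them. The mean difference was -0.05 (95% interval -0.24 to 0.14, adjusted p = 0.75), and 0.020 without pregnant replicate 3. Its relative Nr2f6 differed by -0.03 (0.81), and Nr2f1 lay below the 40th percentile throughout (4.53 to 5.02). The testicular orphan receptors Nr2c1 and Nr2c2, which repress or activate at direct repeats, differed by -0.09 and -0.05. Nr2c1 read 7.15, 7.07, 7.11 and 7.13 in the pregnant group and 7.16, 7.21, 7.28 and 7.20 in the pseudopregnant group. Every pregnant array lay below every pseudopregnant array, by a margin that was small against the spread, and the adjusted p was 0.27 (limma). The neural receptor Nr2e1 lay below the 40th percentile on all arrays (4.92 to 5.19). Among genes linked to Nr2f2 or to steroidogenic factor 1 and its relatives in the uterus, 0 of 6 past the filter passed the threshold. The gap junction gene Gja1 differed by 0.51 ± 0.13 (SE, adjusted p = 0.068), Bmp2 by 0.99 ± 0.42 (0.19) and Wnt4 by 0.22 (0.21). Pregnant replicate 2 was the highest array for Bmp2 (8.37) and Wnt4 (7.01), and without it they differed by 0.49 and 0.13.

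The steroid receptors did not differ detectably. Esr1, the main estrogen receptor of the uterus, read 9.55, 9.51, 9.66 and 9.64 in the pregnant group and 9.66, 9.68, 9.64 and 9.66 in the pseudopregnant group. The pseudopregnant arrays lay close together, pregnant replicates 1 and 2 lay below them, and the difference was -0.07 (95% interval -0.19 to 0.045, limma adjusted p = 0.43). The progesterone receptor Pgr read 9.01, 8.80, 8.74 and 8.99 in the pregnant group and 8.94, 8.83, 8.84 and 8.81 in the pseudopregnant group. Pregnant replicates 1 and 4 lay above the pseudopregnant arrays and replicates 2 and 3 below them, as for Nr2f2. The mean difference of Pgr was 0.03 (-0.13 to 0.19, adjusted p = 0.81), and its sign changed with cyclic loess and without pregnant replicates 1 or 4. The glucocorticoid receptor Nr3c1 differed by -0.07 (0.47).

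The second estrogen receptor, Esr2, known from ovary and from some epithelia, lay below the 40th percentile of every array. It read 4.72, 4.37, 4.63 and 4.58 in the pregnant group and 5.21, 4.90, 4.86 and 5.11 in the pseudopregnant group. All pregnant values were below all pseudopregnant values, with a difference of -0.44 (-0.50 to -0.37 over the alternatives that rescaled or left out arrays), whose size is not exact so near the background. Without the intensity filter it was the receptor gene with the smallest adjusted p, 0.091 (limma over 28944 probe sets, of which 0.187% were called), and 0 of the 44 receptor genes were called. The mineralocorticoid receptor Nr3c2 read 5.04, 5.03, 5.15 and 5.04 against 5.16, 5.35, 5.34 and 5.45. Its difference was -0.26 (adjusted p = 0.12 without the filter), and pseudopregnant replicates 2, 3 and 4 alone lay above the 40th percentile.

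The orphan Esrrb, a relative of the estrogen receptors known from pluripotent cells, read 4.09, 4.34, 4.27 and 4.19 against 4.70, 4.57, 4.39 and 4.39, a difference of -0.29 (0.14 without the filter). Of the 16 genes under the filter these 3 showed no overlap of the groups, all lower in the pregnant group, or 18.8%, where 5.91% of all probe sets under the filter showed no overlap. The 40th percentiles were 5.23 to 5.25 on pregnant and 5.24 to 5.32 on pseudopregnant arrays. The median difference over all probe sets without the filter was -0.019. Their part in the values of these 3 genes was not tested. Of the other estrogen-related receptors, which control mitochondrial genes, Esrra passed the filter and differed by -0.12 ± 0.057 (SE, adjusted p = 0.23). It read 6.34, 6.16, 6.26 and 6.18 against 6.43, 6.36, 6.31 and 6.33, and only pregnant replicate 1 lay within the pseudopregnant range. Esrrg lay at 4.66 to 5.15 in both groups.

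**Figure D2:**
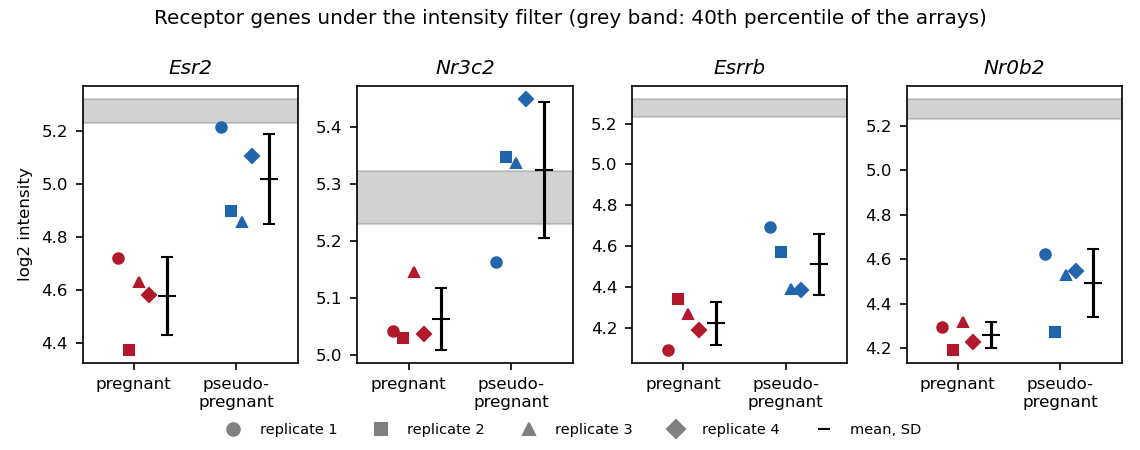
Log2 intensity (y axis, scaled for each panel) of 4 receptor genes under the intensity filter in pregnant (red) and pseudopregnant (blue) uterus, a marker for each replicate and the mean with SD (n = 4) in black. The grey band spans the 40th percentiles of the 8 arrays, 5.23 to 5.32: Esr2, Esrrb and Nr0b2 lie below it on every array, 3 pseudopregnant arrays of Nr3c2 lie above it, and the groups overlap for Nr0b2 only.

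Steroid-responsive genes were read beside these receptors. Of 11 measured progesterone-responsive genes, 1 rose, the Cyp26a1 already given, where 1.41% of all kept probe sets were called higher. The median difference of the 11 was -0.02. The transcription factor Gata2 differed by -0.32 ± 0.079 (SE, adjusted p = 0.062), the follistatin gene Fst by 0.24 (0.13) and the endocytic receptor Lrp2 by -0.93 ± 0.45 (0.24). Of 8 estrogen-responsive genes past the filter, Pgr among them, 0 passed the threshold. The spindle checkpoint gene Mad2l1 differed by 0.42 (0.11), the mucin Muc1 by -0.34 (0.12), the antibacterial protein Lcn2 by 0.11 (0.51) and Greb1 by 0.10 (0.63). Without pregnant replicate 2 the differences were -0.45 for Lrp2, -0.21 for Muc1 and 0.27 for Mad2l1. Of 10 measured glucocorticoid-responsive genes 0 passed and 8 had differences below 0, with a median of -0.11. Among them Klf9 differed by -0.13 (0.15), the metallothionein Mt2 by -0.25 (0.22), Zbtb16 by -0.18 (0.23) and Cebpd by -0.18 (0.29), while Mt2 differed by -0.14 without pseudopregnant replicate 1 and Cebpd by -0.11 without pregnant replicate 2. Of the epithelial markers, 0 of 8 passed and 6 lay below 0, with a summed level of 10.61 to 10.99 in the pregnant and 10.88 to 11.28 in the pseudopregnant group. Their part in the values of Esr1, Esr2 and Muc1 was not tested.

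**Figure D3:**
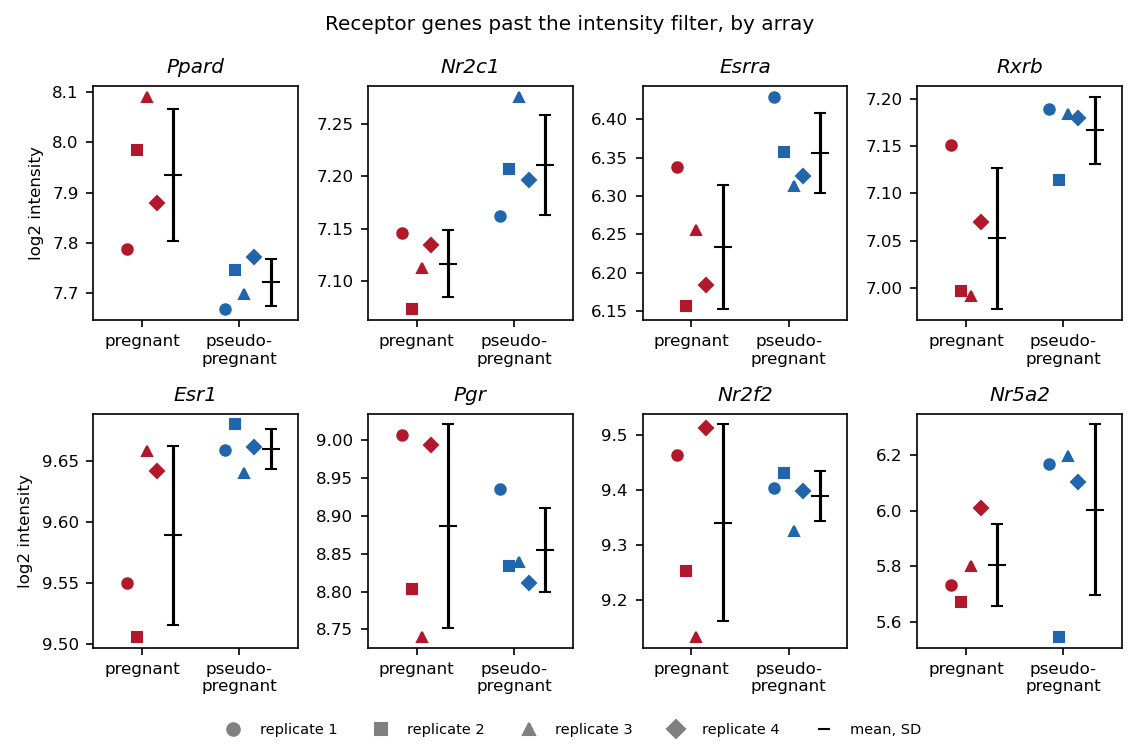
Log2 intensity (y axis, scaled for each panel) of 8 receptor genes past the intensity filter in pregnant (red) and pseudopregnant (blue) uterus, a marker for each replicate and the mean with SD (n = 4) in black. The groups do not overlap for Ppard and Nr2c1, and 1 pseudopregnant array of Nr5a2 (replicate 2, 5.55) lies far below the others of its group.

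The receptors of the NR4A subfamily (Nur77, Nurr1 and Nor1) bind DNA without a classical ligand and are immediate early genes, whose transcripts rise within minutes of a stimulus. Nr4a1 and Nr4a2 varied more than any other receptor gene past the filter, and all 3 genes varied within the groups more than between them. Nr4a1 read 6.18, 6.22, 7.91 and 6.57 in pregnant replicates 1 to 4 and 6.19, 7.07, 8.42 and 6.62 in pseudopregnant replicates 1 to 4. Nr4a2 read 7.35, 7.33, 8.25 and 7.49 in the pregnant and 7.26, 7.78, 8.31 and 7.31 in the pseudopregnant group. Nr4a3 read 4.77, 4.57, 7.41 and 5.12 in the pregnant and 4.91, 6.96, 6.62 and 4.68 in the pseudopregnant group. For all 3 genes the highest arrays were pregnant replicate 3 and pseudopregnant replicates 2 and 3. From the lowest to the highest array the intensity differed 4.73-fold for Nr4a1, 2.06-fold for Nr4a2 and 7.16-fold for Nr4a3.

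The group differences of these genes were small against that spread. Nr4a1 differed by -0.36 ± 0.49 (SE, limma adjusted p = 0.69), with -0.75 without pregnant replicate 3 and 0.092 without pseudopregnant replicate 3. Nr4a2 differed by -0.06 ± 0.26 (adjusted p = 0.91), with -0.28 and 0.15 without those arrays. The within-group SD of Nr4a1, 0.89, was above that of 99.9% of all kept probe sets, and that of Nr4a2, 0.46, above 99.5%, where the median SD was 0.10 over all kept probe sets and 0.096 over the 28 receptor genes. Nr4a3 passed the 40th percentile on 3 arrays only and did not pass the filter. Its difference was -0.33, with a range of -0.97 to 0.063 over the alternatives that rescaled or left out arrays. Its arrays formed 5 low and 3 high ones, so no correlation is given for it.

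The promoters of the 3 genes are shown because the genes were high and low on the same arrays. They are the 250 bases before the RefSeq start site on GRCm38.p6, 5′ to 3′ on the strand of the gene, at chr15:101266596-101266845 (plus strand) for Nr4a1, chr2:57124004-57124253 (minus strand) for Nr4a2 and chr4:48045055-48045304 (plus strand) for Nr4a3. Capitals mark TGACG, the core of the cyclic AMP response element (CRE) to which CREB binds, on either strand, where CGTCA is the core on the other strand.
Nr4a1: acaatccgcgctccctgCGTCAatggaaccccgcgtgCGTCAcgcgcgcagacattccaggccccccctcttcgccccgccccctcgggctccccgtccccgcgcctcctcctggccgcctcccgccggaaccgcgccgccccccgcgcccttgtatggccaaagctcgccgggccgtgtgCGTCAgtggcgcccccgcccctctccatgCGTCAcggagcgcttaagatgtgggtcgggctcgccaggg
Nr4a2: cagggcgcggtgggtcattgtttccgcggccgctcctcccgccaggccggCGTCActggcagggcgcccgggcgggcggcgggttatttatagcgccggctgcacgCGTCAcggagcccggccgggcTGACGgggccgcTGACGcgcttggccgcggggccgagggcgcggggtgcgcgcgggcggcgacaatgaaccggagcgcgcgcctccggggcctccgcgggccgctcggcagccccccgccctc
Nr4a3: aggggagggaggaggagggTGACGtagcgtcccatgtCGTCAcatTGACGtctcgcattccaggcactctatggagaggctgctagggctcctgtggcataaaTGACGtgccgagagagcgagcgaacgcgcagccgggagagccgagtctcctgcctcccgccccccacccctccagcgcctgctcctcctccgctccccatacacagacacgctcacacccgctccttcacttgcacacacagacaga
Each of the 3 windows held 4 such cores, at 233, 213, 69 and 40 bases before the start site of Nr4a1, 200, 144, 123 and 111 before that of Nr4a2 and 231, 213, 205 and 147 before that of Nr4a3, counted to the first base of the core as printed.

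Among the 32851 RefSeq windows of that length, 17.8% held at least 1 core and 45, or 0.137%, held at least 4. Of the 63 windows of the 42 receptor genes with a promoter entry, 13 held at least 1 core, or 20.6%, near the share of all windows. The only 3 with at least 4 were those of the NR4A genes. This cut equals the count in each of those 3 windows, so the share at it is not a test of their rarity. The most in a window of another member was 3, for Nr2e1. The full palindrome TGACGTCA, which contains the core on both strands, stood in 1.55% of all windows and in none of the NR4A windows. The hexamer AGGTCA, the DNA motif that many nuclear receptors share, was found on either strand in 14.0% of all windows and in 11 of the 63 receptor windows (17.5%). The longer AAAGGTCA, to which NR4A proteins bind and which contains that hexamer, stood in 1.34% of all windows and in 2 of the 63. Neither was in an NR4A window. These matches describe letters in the windows, and binding was not measured.

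Other immediate early genes were examined after the values of the NR4A genes had been seen. Of 12 such genes, 10 were highest in pseudopregnant replicate 3 and, among the pregnant arrays, 9 were highest in replicate 3. The same 3 arrays were the highest for Fosb, Egr2, Jun and Atf3, and not for the other 8. Fosb read 5.95, 5.90, 7.16 and 5.82 in the pregnant and 6.03, 6.66, 7.05 and 5.90 in the pseudopregnant group. Of the 12 genes, 0 were called between the groups. The part of these arrays in the NR4A values was tested only by leaving them out.

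**Figure D4:**
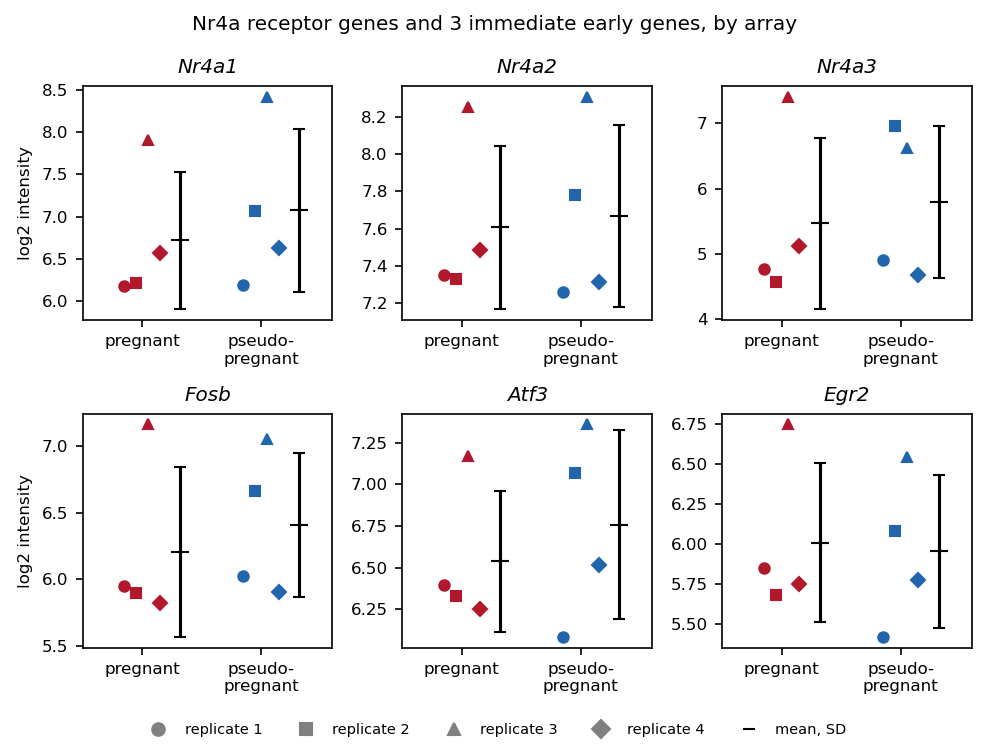
Log2 intensity (y axis, scaled for each panel) of Nr4a1, Nr4a2 and Nr4a3 (top) and of the immediate early genes Fosb, Atf3 and Egr2 (bottom) in pregnant (red) and pseudopregnant (blue) uterus, a marker for each replicate and the mean with SD (n = 4) in black. In every panel the 3 highest arrays are pregnant replicate 3 and pseudopregnant replicates 2 and 3.

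Receptors of one subgroup were then compared across the 8 arrays, as pairs of genes with at least 3 arrays above the 40th percentile and without a gap of over 50% of the range in either gene. Of 12 such pairs, 1 passed an exact permutation test after adjustment. Nr4a1 and Nr4a2 had a Pearson r of 0.97 (two-sided exact permutation p = 0.00084, adjusted 0.010), a Spearman rho of 0.76 (exact p = 0.037, adjusted 0.22) and an r of 0.87 without the 2 arrays farthest from the median. Nr1d1 and Nr1d2 had an r of 0.84 (exact permutation p = 0.010, adjusted 0.063) and a rho of 0.83 (exact p = 0.015, adjusted 0.18). Without the 2 arrays farthest from the median of Nr1d1 their r was 0.40. Leaving out extreme arrays narrows the range and can lower r for a real relation too, so this value does not show what the relation rests on. The 10 other pairs, among them Rxra with Rxrb (0.51), Thra with Thrb (0.40), Ppard with Pparg (0.58), Nr3c1 with Pgr (0.27) and Nr5a1 with Nr5a2 (0.47), had adjusted p of 0.45 to 0.57 (exact permutation tests over 8 arrays).

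The receptors of the NR5A subfamily, which drive steroid synthesis in ovary and adrenal, gave no call. Nr5a2, which stromal cells need for decidualization, read 5.73, 5.67, 5.80 and 6.01 in the pregnant and 6.17, 5.55, 6.20 and 6.10 in the pseudopregnant group. Pseudopregnant replicate 2 was the lowest of all arrays and the other pseudopregnant arrays were the highest, so that the difference of -0.20 ± 0.14 (SE, adjusted p = 0.41) was -0.35 (adjusted p = 0.080) without it. Nr5a1, the steroidogenic factor 1 of the gonads, differed by -0.10 (adjusted p = 0.34), and its targets Star and Cyp11a1 did not pass the filter. Beside them, the inhibin subunit Inha, an ovarian marker, read 6.17, 6.16, 6.17 and 6.40 in the pregnant and 7.28, 6.22, 6.94 and 7.62 in the pseudopregnant group, with the lowest pseudopregnant value in the same replicate 2. The summed level of the 5 measured ovary and oviduct markers, of which 2 passed the filter, was 7.65 to 7.72 in the pregnant and 7.80 to 8.45 in the pseudopregnant group. Its part in the values of Nr5a2, Esr2 and Nr5a1 was not tested. The germ cell receptor Nr6a1 differed by -0.02 (0.85) and the liver receptor Hnf4a by -0.10 (0.37), while Hnf4g lay at 3.56 to 3.87. Hnf4a exceeded the 40th percentile on 4 arrays only. The atypical receptors Nr0b1 and Nr0b2, corepressors that lack a DNA-binding domain, lay below the 40th percentile on all arrays. Nr0b1 ranged from 3.77 in pregnant replicate 2 to 5.04 in pregnant replicate 4, a 2.42-fold range within a group, and Nr0b2 from 4.19 to 4.63.

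**Figure D5:**
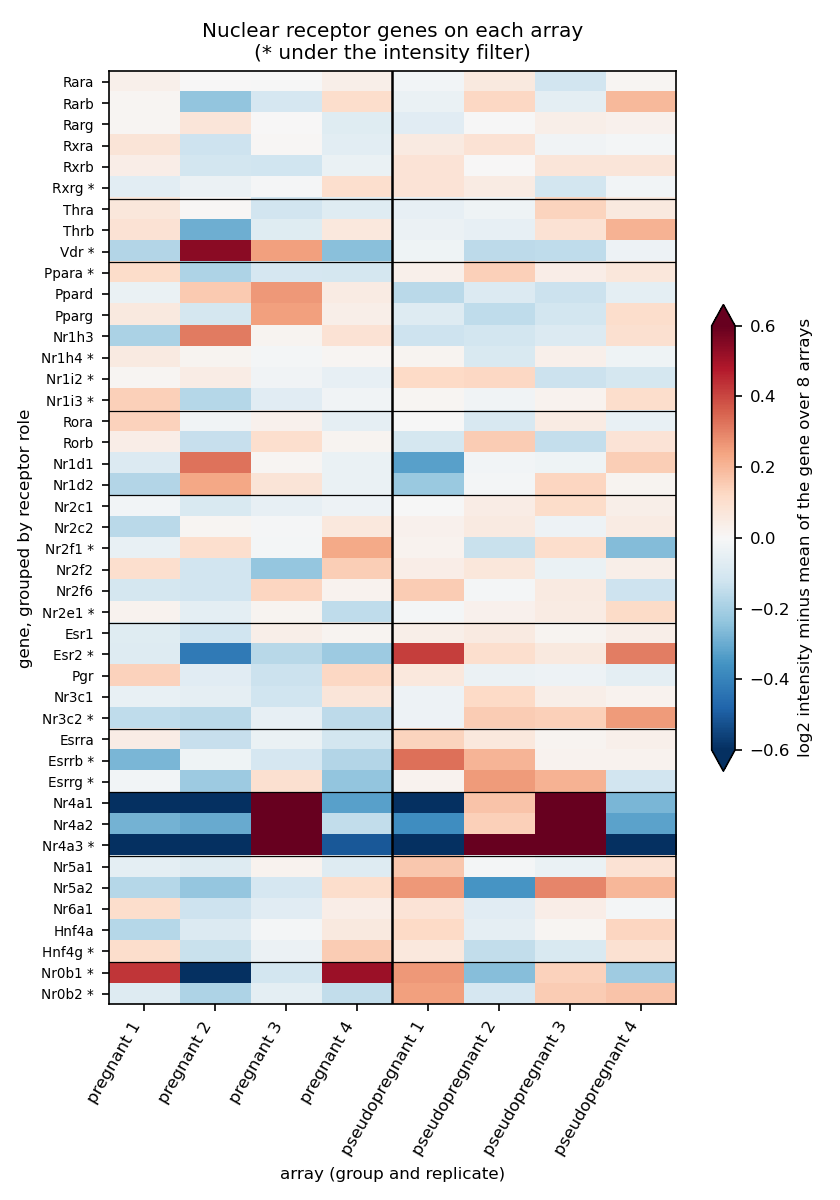
Log2 intensity of the 44 measured nuclear receptor genes (rows, by role) on the 8 arrays (columns), as the difference from the mean of the gene, with colours that end at 0.6 in either direction. The NR4A genes stand out on pregnant replicate 3 and pseudopregnant replicates 2 and 3, and Esr2, Nr3c2 and Esrrb are lower on all 4 pregnant than on all 4 pseudopregnant arrays.

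Cofactors, chaperones and ligand enzymes complete the pathway. Of 17 measured coactivators 0 passed, with differences above 0 for 11 and a median of 0.03, and the arginine methyltransferase Carm1 had the smallest p (0.16 ± 0.061, SE, limma adjusted p = 0.15). The p160 coactivators Ncoa1, Ncoa2 and Ncoa3 differed by -0.09 (0.34), -0.10 (0.41) and 0.05 (0.58). Of 8 measured corepressors 0 passed, with Nrip1, a ligand-dependent corepressor, at -0.17 (0.18) and Gps2, a subunit of the NCoR complex, at 0.10 (0.30). All 8 measured steroid receptor chaperones had differences above 0, with a median of 0.15, and 0 passed. The cochaperone Bag1 differed by 0.27 ± 0.066 (SE, adjusted p = 0.062), the p23 gene Ptges3 by 0.22 (0.11) and Hsp90aa1 by 0.28 (0.18).

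Of 18 enzymes with a probe set that make or remove receptor ligands, 11 passed the filter and 1 of these rose. Hsd17b7, which makes estradiol from estrone and also acts in cholesterol synthesis, read 6.01, 6.20, 5.94 and 6.19 in the pregnant and 5.64, 5.70, 5.75 and 5.68 in the pseudopregnant group. The groups did not overlap, and the difference was 0.39 ± 0.069 (SE, limma adjusted p = 0.030). The call was lost without any single array other than pregnant replicate 3, at adjusted p up to 0.085. Ch25h, which makes an oxysterol, differed by -0.30 ± 0.069 (0.056), the sterol hydroxylase Cyp27a1 by -0.16 (0.14) and Hsd11b2, which inactivates glucocorticoids, by -0.18 (0.21). Over all these lists and the target genes, members aside, 4 of 105 genes past the filter rose (Cyp26a1, Cd36, Apoe and Hsd17b7) and 0 fell. The 4 were 3.81%, where 1.41% of all kept probe sets were called higher. The lists were chosen with earlier results known, Cyp26a1 and Hsd17b7 among them, so this share is not evidence about the pathway.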

How the data were processed

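Total RNA of 8 mouse uteri was extracted with Trizol, labelled with biotin and hybridised to 1 array each, per the labels. The authors deposited probe set intensities as linear values that RMA gave (named without version or settings), per the submitters' processing notes. RMA makes array distributions alike and compresses changes near the background. No annotation build is named in the labels.

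Of 35556 probe sets, 6612 at the lowest identifiers without any gene were taken to be array controls and left out. Groups were compared on the log2 scale with lmFit and eBayes of limma 3.58.1 (R 4.3.3), two-sided, a single group term, Benjamini-Hochberg over the 17494 probe sets past the filter. Called means an adjusted p under 0.05. Probe sets were named by the platform table (annotation as deposited there), and the gene numbers of all 44 measured receptors carried the same symbol in RefSeq. The probe set with the highest mean stood for a gene. The fit was tested on simulated data. Correlations and figures used Python 3.11.15 and matplotlib 3.10.9.

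Members and lists were chosen with earlier results of these data known. All members are named. Of each cofactor, chaperone, enzyme and target list, the genes past the threshold are named, with some of those with small p. These were not taken in strict order of p, and a few further genes were chosen after their values were seen. No batch is named in the labels. The alternatives varied the filter, the normalization, the probe set rule, the variance model, array weights, a replicate block and each array in turn.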

Additional observations from a re-analysis of the deposited data

Results flagged for a closer look

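In 4 of 88 groups of 4 arrays, taken over the 44 measured receptor genes, 1 array lay far from the other 3 by Dixon's criterion. Chance gives this in about 1 of 20 groups. The retinoid X receptor gene Rxrb read 7.11 in pseudopregnant replicate 2, against 7.18 to 7.19 on the other 3 arrays, a gap that is small in size. Nr3c2, under the intensity filter, read 5.15 in pregnant replicate 3 against 5.03 to 5.04. Nr4a2 read 8.25 in pregnant replicate 3 against 7.33 to 7.49. Nr5a2 read 5.55 in pseudopregnant replicate 2 against 6.10 to 6.20.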

How the results depend on the processing

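The count of receptor genes past the threshold was 0 under all 17 alternatives (limma), with an adjusted p no lower than 0.080 (Nr5a2, without pseudopregnant replicate 2) and with 1 to 5 genes at an unadjusted p under 0.05. The count over all probe sets, 319, became 54 without the filter, 708 with an intensity trend and 174 with the replicate block, and 40 to 235 without single arrays, less than 1.5 times below 319 only without pseudopregnant replicate 4. The cofactor, enzyme, chaperone and target genes past the threshold, 4, became 0 without the filter, 2 with the stricter filter, 0 with the replicate block, and 0 to 5 without single arrays (0 without pregnant replicates 1 or 4 or pseudopregnant replicates 1 or 2, and 1 without pregnant replicate 2 or pseudopregnant replicate 3). The calls of Cyp26a1, Cd36, Apoe and Hsd17b7 held under 10, 6, 8 and 7 of 17, 16, 17 and 16 alternatives, with adjusted p of 0.022 to 0.085, 0.022 to 0.12, 0.018 to 0.085 and 0.026 to 0.085. The cause was not tested.

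Uncalled differences near 0 changed sign. With median centring, repeated quantile normalization, cyclic loess and array weights Rarg was -0.011, -0.019, -0.0093 and -0.012, and with the first 3 of these Rorb was -0.0099, -0.024 and -0.021. With array weights Nr1d2 was -0.032 and Nr6a1 0.0050, and with cyclic loess Pgr was -0.0098. Without single arrays the ranges were -0.0033 to 0.055 for Rara, -0.015 to 0.033 for Rarg, -0.038 to 0.060 for Rorb, -0.023 to 0.11 for Nr1d2, -0.11 to 0.020 for Nr2f2, -0.083 to 0.010 for Nr2f6, -0.0092 to 0.080 for Pgr, -0.75 to 0.092 for Nr4a1, -0.28 to 0.15 for Nr4a2 and -0.061 to 0.015 for Nr6a1. Deviations of same-numbered arrays from their group means correlated at 0.24, 0.016, -0.10 and 0.044 for replicates 1 to 4. They were not alike across replicates, so replicate numbers were not taken as pairs. A shared deviation is not excluded for replicate 1, and the NR4A genes were high in replicate 3 of both groups. The block ended the calls of Cyp26a1, Cd36, Apoe and Hsd17b7.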
